A study of Mus musculus with 12 samples.

Results

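The genes described here are the ISG15 conjugation system and the interferon-induced PARP group: Isg15, Uba7, Ube2l6, Herc6, Trim25, Usp18, Parp9, Dtx3l, Parp12 and Parp14. They were taken by gene symbol from a fixed list of 10, with no threshold on their values, and they are 10 of the 27179 genes in the count table. The list was chosen with earlier results of these data known. Counts of its called genes beside the share of all genes are therefore a description, not an independent test. All 10 passed the filter on low counts, which left 12910 genes for testing.

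Poly(A) RNA was measured in MC38-idAdpgkG cells, derived from the mouse colon carcinoma line MC38 (strain C57BL/6). The line carries a mutated Adpgk (an ADP-dependent glucokinase) as a transgene fused to turboGFP. Doxycycline switches the transgene on, and dTAG-13, a degrader that bridges the tagged fusion protein to a ubiquitin ligase, removes its product. The 4 groups had 3 libraries each. All 4 groups received 20 ng/mL mouse interferon-gamma for 51 h. The control group received nothing else, and the doxycycline group also received 1 µg/mL doxycycline for 51 h. The dTAG-13 group received 1 µM dTAG-13 for the last 3 h, after 48 h of interferon-gamma. The doxycycline plus dTAG-13 group received both agents on those schedules. No group was without interferon-gamma, so the data hold no measure of how far interferon-gamma itself raised these genes. No group lacked the transgene, so doxycycline as a compound and the transgene it switches on cannot be told apart.

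ISG15 is a ubiquitin-like protein that interferon induces and that cells attach to other proteins through a chain of enzymes like that of ubiquitin. UBA7 activates it, UBE2L6 carries it, and an E3 ligase, chiefly HERC6 in mouse, joins it to its targets, while USP18 takes it off again and also restrains signalling from the type I interferon receptor. PARP9, PARP12 and PARP14 belong to the family of ADP-ribosyltransferases, and DTX3L is a ubiquitin E3 ligase that works as a complex with PARP9.

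Per the labels, each group was 1 biological sample with 3 technical libraries. Every SD, standard error (SE) and p-value below therefore describes how libraries of the same culture vary, and a difference between groups is a difference between 2 cultures. The libraries held between 22165538 and 32809573 counts. Adpgk RNA served as the check of the doxycycline labels. It was 160.5 ± 2.49 CPM (the read count normalised to the scaled library size) in control and 1338 ± 20.1 CPM with doxycycline (mean ± SD, n = 3 libraries). In the dTAG-13 group it was 181.3 ± 4.18 CPM, and with both agents 1369 ± 15.7 CPM. The dTAG-13 labels have no such check, because the degrader acts on the protein and these data hold RNA only. All 8 epithelial markers examined were under 1 CPM in every library, with Epcam and Cdx2 at 0 counts, although the label is colon. All 5 immune markers were also under 1 CPM in every library, with Cd3e at 0. The summed level of 4 mesenchymal markers, nearly all of it Vim, was 1486 to 1529 CPM in control, 1292 to 1311 with doxycycline, 1196 to 1213 with dTAG-13 and 1013 to 1048 with both. Pdgfrb, another of the 4, went the other way with doxycycline, at 5.28 ± 0.204 CPM in control, 8.45 ± 0.0390 with doxycycline, 4.71 ± 0.265 with dTAG-13 and 7.56 ± 0.267 with both. The remaining 2 of the 4, Col1a1 and Col1a2, were under 1 CPM in every library. Of 3 endothelial markers, Cdh5 and Kdr were under 1 CPM in every library. The third, Pecam1, had a mean of 2.93 CPM in control, 3.06 with doxycycline, 3.46 with dTAG-13 and 2.29 with both. The part of these markers in the results below was not tested. Replicate 3 of the doxycycline plus dTAG-13 group stood apart from replicates 1 and 2, with a chi-square per degree of freedom of 8.45 and 8.80 against 2.75 between replicates 1 and 2. Replicate 3 also stood apart, by less, in the doxycycline group (5.74 and 5.05 against 2.43) and in control (4.68 and 4.48 against 2.46). Leaving out control replicate 3 changed no call or direction among the 10 genes, and leaving out doxycycline replicate 3 changed that of Usp18, given below. In bulk RNA, fewer cells expressing a gene and less of its RNA per cell cannot be told apart.

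The upstream sequence of Isg15 is shown because Isg15 is the modifier that the other enzymes act on and because its window was the one of those available with letters that match the core of the interferon-stimulated response element. These 250 bases before the transcription start lie at chr4:156200819-156201068 on the minus strand (RefSeq, GRCm38.p6) and are printed 5′ to 3′, with the bases that match the motif in capitals.
Isg15: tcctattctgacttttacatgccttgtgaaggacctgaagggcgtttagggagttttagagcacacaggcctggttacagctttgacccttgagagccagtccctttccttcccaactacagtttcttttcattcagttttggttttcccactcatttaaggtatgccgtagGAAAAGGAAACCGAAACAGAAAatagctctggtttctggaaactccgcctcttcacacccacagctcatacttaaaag
The motif searched was the core of that element, GAAA followed by any 2 bases and a second GAAA, on both strands, in windows of 250 bases before to 50 bases after each gene's start. Isg15 held 3 matches that overlap one another, GAAAAGGAAA, GAAACCGAAA and GAAACAGAAA, with first bases at -78, -72 and -66 from the start. The same core stood in 1131 of 32851 promoters (3.44%). The gamma-activated site TTCNNNGAA stood in 2726 of them (8.3%) and was not found in the Isg15 window. Windows were available for 7 of the 10 genes, the others being Usp18, Parp9 and Parp14. In the windows of Uba7, Ube2l6, Herc6, Trim25, Dtx3l and Parp12 neither motif was found, which says only that these letters are not in those windows.

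Parp14, Dtx3l and Parp9 are neighbours on chromosome 16 (GRCm38/mm10), within 140.73 kb from 35831892 to 35972621. Parp14 (35831892 to 35871518) and Dtx3l (35926515 to 35939027) are on the minus strand, and Parp9 (35938470 to 35972621) is on the plus strand. The RefSeq spans of Parp9 and Dtx3l share 558 bases. In another annotation, GENCODE M21, 458 bases are exonic in both genes. The strand setting of the counting is not given in the sources used here, so reads from those shared bases may not be told apart. Parp12 (39086412 to 39118349, minus strand), Herc6 (57580992 to 57665136, plus) and Usp18 (121245906 to 121270917, plus) are all on chromosome 6, far from one another. Isg15 is on chromosome 4 (156199424 to 156200818, minus), Ube2l6 on chromosome 2 (84798828 to 84810003, plus), Uba7 on chromosome 9 (107975567 to 107984056, plus) and Trim25 on chromosome 11 (88999403 to 89020294, plus). Uba7 shares 233 exonic bases with the protein-coding gene Gm20661 on the same strand, and Herc6 shares 1269 with the transcript Gm45193. Usp18 shares 124 exonic bases with a non-coding gene on the opposite strand (Gm44148), and Parp14 shares 110 with Gm49730.

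Levels were compared between genes only after division by transcript length, as CPM per kb averaged over the 12 libraries. On that scale Isg15 had the highest level of the 10, at 59.1 CPM per kb, above 87.8% of tested genes. Parp12 followed at 56.0 and Parp9 at 37.7 CPM per kb. Trim25 (23.6), Ube2l6 (22.5), Dtx3l (15.4), Herc6 (11.1) and Parp14 (9.67) were intermediate. The enzyme that starts conjugation and the one that reverses it were the lowest: Usp18 was at 2.27 CPM per kb, above 20.5% of tested genes, and Uba7 at 1.73, above 17.8%. Their counts were correspondingly few, 78 to 155 reads per library for Usp18 and 90 to 232 for Uba7, against 912 to 2045 for Isg15.

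All 10 genes were called higher in the cells with doxycycline, both without and with dTAG-13, by 1.07-fold to 1.87-fold. Of all tested genes, 14.8% and 10.7% were called higher there. With dTAG-13 the same genes moved apart: Isg15 and Ube2l6 rose whether or not doxycycline was present, Uba7 and Herc6 rose without doxycycline and were not called with it, and Parp14 and Dtx3l fell in both settings. These dTAG-13 calls, 6 of the 10 genes without doxycycline and 4 with it, stand beside 62.1% and 64.1% of all tested genes. The difference between the settings passed its own test for Isg15, Herc6 and Parp14, where 22.9% of tested genes did. The rise of Isg15 without doxycycline and that of Ube2l6 with it did not hold once length and GC content of the transcripts were corrected for, as given below. That correction also brought genes past the threshold. Trim25 and Parp12 were then called higher in both settings, Uba7 and Parp9 higher with doxycycline, and Usp18 lower without it. Calls are at an adjusted p under 0.05 in edgeR's quasi-likelihood test, with Benjamini-Hochberg adjustment over the 12910 genes, and every adjusted p below comes from that test. Fold changes are on the log2 scale of fitted counts, with the SE in brackets. The values of each gene in each library are given first.

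**Figure D1:**
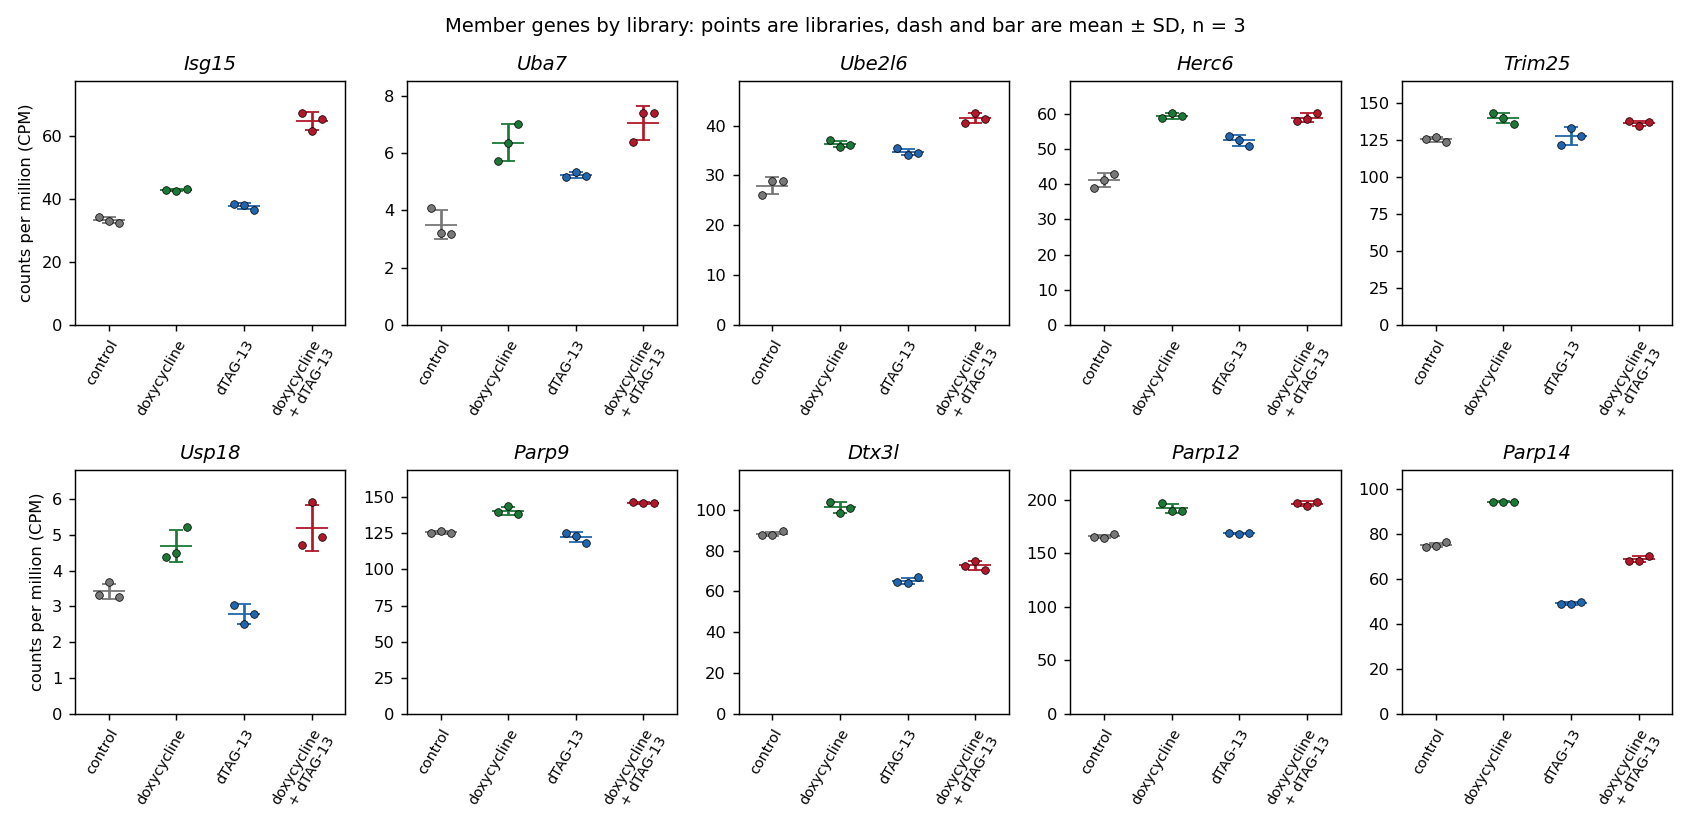
Normalised level of the 10 genes in each library (vertical axes in CPM from 0, one panel per gene; horizontal axes, the 4 groups; points, libraries; dash and bar, mean ± SD, n = 3). For every gene the doxycycline points lie above the control points, and for Parp14 and Dtx3l both groups with dTAG-13 lie below control.

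Isg15, the modifier, had 34.3, 33.1 and 32.4 CPM in the control libraries, 42.9, 42.6 and 43.2 with doxycycline, 38.5, 38.0 and 36.6 with dTAG-13, and 67.3, 61.5 and 65.3 with both. The 4 groups did not overlap, in the order control, dTAG-13, doxycycline, both, and the highest group mean was 1.94 times the lowest. The log2 fold change with doxycycline was 0.37 (SE 0.045, adjusted p 1.6e-08) against control and 0.78 (SE 0.043, adjusted p 5.68e-18) in the presence of dTAG-13.

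Uba7, the E1 enzyme that activates ISG15, had 4.08, 3.22 and 3.19 CPM in control, 5.73, 6.37 and 7.01 with doxycycline, 5.17, 5.34 and 5.20 with dTAG-13, and 6.37, 7.39 and 7.40 with both. Control was lowest and dTAG-13 next, while the doxycycline group and the group with both agents overlapped. Its log2 fold change with doxycycline against control, 0.86 (SE 0.12, adjusted p 3.19e-07), had the greatest size of the 10 in that comparison.

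Ube2l6, the E2 enzyme that carries ISG15, had 26.1, 28.9 and 28.9 CPM in control, 37.0, 35.7 and 36.1 with doxycycline, 35.4, 34.2 and 34.4 with dTAG-13, and 40.6, 42.6 and 41.3 with both. The groups had the same order as for Isg15 and did not overlap. With doxycycline the log2 fold change was 0.38 (SE 0.049, adjusted p 5.28e-08) against control.

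Herc6, the main ISG15 ligase of the mouse, had 39.0, 41.3 and 42.9 CPM in control, 58.7, 60.1 and 59.3 with doxycycline, 53.8, 52.6 and 50.9 with dTAG-13, and 58.1, 58.5 and 60.3 with both. Control was lowest, dTAG-13 was next, and the 2 groups with doxycycline overlapped at the top. Its log2 fold change was 0.53 (SE 0.041, adjusted p 1.05e-13) with doxycycline against control but 0.17 (SE 0.041, adjusted p 0.00185) in the presence of dTAG-13.

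Trim25, an E3 ligase of the TRIM family that also acts in RIG-I signalling, had 125.5, 127.0 and 123.3 CPM in control, 143.2, 139.9 and 136.0 with doxycycline, 121.4, 133.2 and 127.6 with dTAG-13, and 137.4, 134.3 and 136.8 with both. Control and dTAG-13 overlapped, as did the 2 groups with doxycycline, and the highest group mean was only 1.11 times the lowest. The log2 fold change with doxycycline was 0.16 (SE 0.030, adjusted p 5.82e-05) against control and 0.10 (SE 0.030, adjusted p 0.0202) in the presence of dTAG-13. The second of these did not pass when single libraries were left out: without doxycycline plus dTAG-13 replicate 1 it was 0.09 (adjusted p 0.0772), without its replicate 3 0.09 (0.0604), without dTAG-13 replicate 1 0.06 (0.181) and without dTAG-13 replicate 3 0.10 (0.0506).

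Usp18, the protease that removes ISG15, had 3.33, 3.67 and 3.26 CPM in control, 4.37, 4.50 and 5.21 with doxycycline, 3.05, 2.51 and 2.79 with dTAG-13, and 4.72, 5.93 and 4.95 with both. The dTAG-13 group was lowest and the 2 groups with doxycycline overlapped at the top. The log2 fold change with doxycycline was 0.45 (SE 0.13, adjusted p 0.00648) against control and 0.90 (SE 0.14, adjusted p 2.91e-06) in the presence of dTAG-13. Without doxycycline replicate 3 the first was 0.37 at an adjusted p of 0.0544.

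Parp9, the partner of DTX3L, had 125.3, 127.0 and 125.1 CPM in control, 139.8, 144.0 and 138.8 with doxycycline, 125.3, 123.6 and 118.7 with dTAG-13, and 147.1, 145.8 and 145.8 with both. Control and dTAG-13 overlapped, and the group with both agents was above doxycycline alone in every library. The log2 fold change with doxycycline against control was 0.16 (SE 0.028, adjusted p 8.66e-06).

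Dtx3l had 87.9, 87.6 and 89.5 CPM in control, 104.0, 98.5 and 100.9 with doxycycline, 64.6, 64.3 and 66.9 with dTAG-13, and 72.5, 75.0 and 70.7 with both. The groups did not overlap, and the order was dTAG-13, both, control, doxycycline. On the log2 scale Dtx3l differed by 0.20 (SE 0.033, adjusted p 8.26e-06) with doxycycline and -0.44 (SE 0.034, adjusted p 2.09e-14) with dTAG-13, each against control.

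Parp12, a mono-ADP-ribosyltransferase with zinc fingers, had 165.4, 164.6 and 168.0 CPM in control, 196.9, 190.0 and 189.6 with doxycycline, 169.6, 168.7 and 169.1 with dTAG-13, and 197.0, 194.2 and 198.6 with both. The dTAG-13 group lay just above control without overlap, and the 2 groups with doxycycline overlapped well above both. With doxycycline its log2 fold change was 0.21 (SE 0.025, adjusted p 8.35e-09) against control and 0.22 (SE 0.025, adjusted p 8.63e-09) in the presence of dTAG-13.

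Parp14, a mono-ADP-ribosyltransferase with macrodomains, had 74.3, 74.4 and 76.2 CPM in control, 93.9, 94.3 and 94.2 with doxycycline, 48.7, 48.6 and 49.8 with dTAG-13, and 68.1, 67.9 and 70.2 with both. The groups did not overlap, and the order was the same as for Dtx3l, its neighbour on chromosome 16. Against control, the log2 fold change was 0.33 (SE 0.033, adjusted p 1.61e-10) with doxycycline and -0.61 (SE 0.035, adjusted p 1.3e-18) with dTAG-13.

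The first comparison was doxycycline against control, which asks what differed when the transgene was switched on. All 10 genes were called higher, where 14.8% of all tested genes were called higher and 33.5% in either direction. The 10 also had no overlap between the groups, where 19.8% of tested genes were higher without overlap. Their median log2 fold change was 0.35, beside -0.01 over all tested genes, with values from 0.16 (Trim25) to 0.86 (Uba7). Scaling by library size only left all 10 called higher, where 19.7% of tested genes then were, and over all genes it changed the split from 1917 higher and 2414 lower to 2546 and 1607.

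Doxycycline plus dTAG-13 against dTAG-13 makes the same comparison in cells with the degrader and shares no library with the first. All 10 genes were again called higher without overlap, where 10.7% of tested genes were called higher, 20.4% were called in either direction and 17.6% were higher without overlap. The median log2 fold change was 0.26, beside 0.00 over all tested genes, and the values ran from 0.10 (Trim25) to 0.90 (Usp18). Isg15 gave 0.78, Parp14 0.49, Uba7 0.44, Ube2l6 0.26, Parp9 0.25, Parp12 0.22, Herc6 0.17 and Dtx3l 0.16. With scaling by library size only, Trim25 was 0.06 (SE 0.031, adjusted p 0.156) and the other 9 stayed called higher, where 7.17% of tested genes then were, and over all genes the split changed from 1386 higher and 1244 lower to 926 and 2132. All 10 genes were higher with doxycycline in both comparisons under each of the 20 alternative fits.

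**Figure D2:**
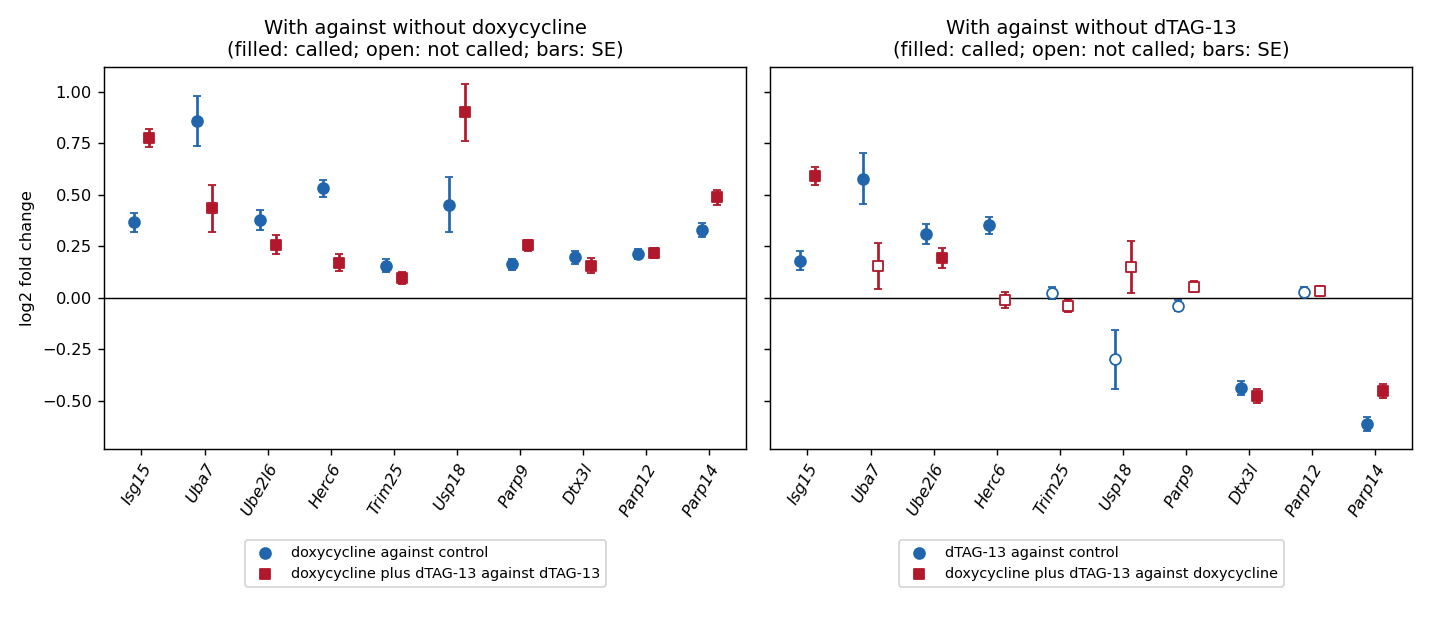
Log2 fold change of the 10 genes (vertical axes; points, estimates; bars, SE; filled, called; open, not called) with against without doxycycline, left, and with against without dTAG-13, right. All 20 values on the left are filled and above 0, while on the right Isg15 and Ube2l6 lie above 0 and Dtx3l and Parp14 below 0 in both settings.

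dTAG-13 against control asks what differed with the degrader when the transgene was off. Here 4 genes were called higher (Isg15, Uba7, Ube2l6, Herc6), 2 lower (Parp14, Dtx3l) and 4 were not called, where 30.0% of tested genes were called higher, 32.1% lower and 62.1% in either direction. The called share of the 10, 6 genes, is near that of all genes, and their median log2 fold change was 0.03, beside 0.02 over all tested genes. Isg15 gave 0.18 (SE 0.045, adjusted p 0.000652), Uba7 0.58 (SE 0.12, adjusted p 9.98e-05), Ube2l6 0.31 (SE 0.049, adjusted p 5.98e-07) and Herc6 0.35 (SE 0.042, adjusted p 1.17e-09). Of the genes not called, Usp18 was at -0.30 (SE 0.14, adjusted p 0.0694), and without dTAG-13 replicate 1 at -0.38 (adjusted p 0.0472). Trim25, Parp9 and Parp12 were between -0.04 and 0.03. Scaling by library size only changed the split over all genes from 3877 higher and 4144 lower to 5256 and 3115, shifted the median of all genes to 0.11, and brought Trim25 (0.12) and Parp12 (0.12) past the threshold.

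Doxycycline plus dTAG-13 against doxycycline asks the same with the transgene on and shares no library with the comparison before it. On the log2 scale Isg15 rose by 0.59 (SE 0.042, adjusted p 1.17e-15) and Ube2l6 by 0.19 (SE 0.047, adjusted p 0.000483), where 30.7% of tested genes were called higher. Parp14 fell by 0.45 (SE 0.034, adjusted p 4.29e-15) and Dtx3l by 0.48 (SE 0.034, adjusted p 1.17e-15), where 33.4% were called lower and 64.1% in either direction. The other 6 were not called: Usp18 was at 0.15, Uba7 at 0.16, Parp9 at 0.05, Parp12 at 0.03, Herc6 at -0.01 and Trim25 at -0.04. Parp9 passed with RLE size factors (0.06), with library size only (0.07), with the filter of 1 CPM in 3 libraries (0.06) and in a fit of these 2 groups alone (0.07). The median of the 10 was 0.04, beside 0.00 over all tested genes.

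Both dTAG-13 comparisons moved with transcript length across all genes, which touches these values because the 10 transcripts run from 756 bases (Isg15) and 1560 (Ube2l6) to 5309 (Dtx3l), 5590 (Trim25) and 7417 (Parp14). Over the 11745 tested genes with a known length, the Spearman correlation of length with log2 fold change was -0.45 in the dTAG-13 comparison without doxycycline and -0.59 in the one with it. In the doxycycline comparisons it was 0.11 without dTAG-13 and -0.24 in its presence. These are correlations across genes, which are not independent replicates.

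After a correction for length and GC content in each library, the dTAG-13 values of Isg15, Parp14 and Trim25 moved most. For dTAG-13 against control, Isg15 went to -0.08 (SE 0.044, adjusted p 0.125), so its call and its direction were lost, and Ube2l6 went to 0.16. Uba7 (0.67) and Herc6 (0.26) remained called higher, and Parp14 (-0.37) and Dtx3l (-0.31) remained called lower. Trim25 became called at 0.26 (adjusted p 3.4e-10), Parp12 at 0.06 (adjusted p 0.023) and Usp18 at -0.41 (adjusted p 0.0127). That made 5 called higher and 3 lower, where 23.2% of the tested genes with a length were called higher and 32.9% lower. For doxycycline plus dTAG-13 against doxycycline, Isg15 was 0.20 (adjusted p 9.07e-05), Parp14 -0.12 (adjusted p 0.00228), Dtx3l -0.27 and Ube2l6 -0.01 (adjusted p 0.922). Trim25 became called at 0.27 (adjusted p 2.33e-10), Parp9 at 0.11, Parp12 at 0.10 and Uba7 at 0.27 (adjusted p 0.032). That again made 5 called higher but 2 lower, where 24.4% were called higher and 28.7% lower. The fall of Parp14 and Dtx3l thus kept its call in both settings, at a smaller size, and all 10 genes were still called higher in both doxycycline comparisons, where 13.2% and 9.88% of tested genes were.

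**Figure D3:**
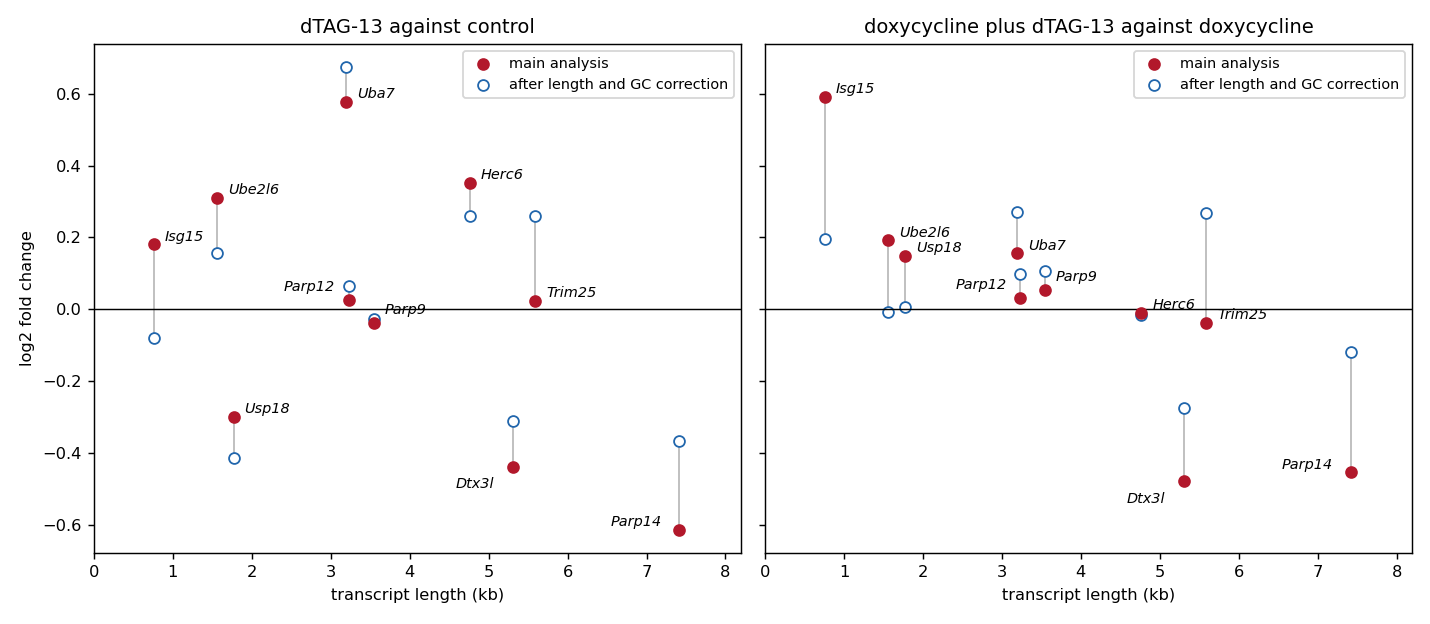
Log2 fold change with dTAG-13 (vertical axes) against transcript length in kb (horizontal axes) for the 10 genes, without doxycycline on the left and with it on the right; filled points are the main values and open points the values after the length and GC correction. Isg15, the shortest, moves down on correction, from 0.18 to -0.08 and from 0.59 to 0.20, and Parp14, the longest, moves up, from -0.61 to -0.37 and from -0.45 to -0.12.

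The interaction is the dTAG-13 difference with doxycycline minus that without it, and it equally measures how the doxycycline difference depended on dTAG-13. It was called for 3 of the 10 genes, 2 higher and 1 lower, where 13.2% of all tested genes were called higher, 9.64% lower and 22.9% in either direction. Isg15 had an interaction of 0.41 (SE 0.062, adjusted p 3.58e-06): with both agents it was 64.7 ± 2.95 CPM, against 42.9 ± 0.288 with doxycycline and 37.7 ± 0.976 with dTAG-13. Herc6 had -0.36 (SE 0.058, adjusted p 8.59e-06): each agent alone raised it from 41.1 ± 1.96 CPM, to 59.4 ± 0.745 and 52.4 ± 1.47, and with both it was 58.9 ± 1.16. Parp14 had 0.16 (SE 0.049, adjusted p 0.0148), the doxycycline difference being 0.33 without dTAG-13 and 0.49 with it.

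After the length and GC correction the interaction was 0.27 for Isg15, -0.27 for Herc6 and 0.25 for Parp14, all called, and Parp9 was called at 0.14 (adjusted p 0.00697), where 23.9% of tested genes were called. With scaling by library size only, Parp14 was 0.09 (adjusted p 0.192) and Uba7 (-0.49), Ube2l6 (-0.19) and Trim25 (-0.13) were called, which made 5 where 25.1% of tested genes were called, and over all genes the split changed from 1705 higher and 1245 lower to 818 and 2424. Without the replicate 3 that stood apart, the interaction was 0.41 for Isg15, -0.37 for Herc6 and 0.15 for Parp14 (adjusted p 0.0374). Usp18 (0.45, SE 0.19, adjusted p 0.0869) and Uba7 (-0.42, SE 0.17, adjusted p 0.062) had interactions of similar size that did not pass, on far fewer reads. Uba7 passed without control replicate 1 (-0.55, adjusted p 0.0242) and without doxycycline replicate 1 (-0.50, adjusted p 0.0405). Ube2l6 (-0.12), Trim25 (-0.06), Parp9 (0.09), Dtx3l (-0.04) and Parp12 (0.01) were not called.

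Genes around the system were described from 5 lists, which were also chosen with earlier results of these data known. The signalling partners, 14 genes of the interferon receptors, JAK kinases, STATs, IRFs and the RIG-I route, had 9 called higher and 0 lower with doxycycline against control, and 7 higher and 0 lower in the presence of dTAG-13, where 14.8% and 10.7% of tested genes were called higher. Their medians were 0.17 and 0.09, beside -0.01 and 0.00 over all tested genes. Irf7, a transcription factor of the interferon response, was 7.24 ± 0.698 CPM in control, 14.0 ± 0.531 with doxycycline, 7.97 ± 1.05 with dTAG-13 and 16.1 ± 1.64 with both. Its log2 fold changes with doxycycline were 0.95 (SE 0.093, adjusted p 9.84e-11) and 1.01 (SE 0.091, adjusted p 1.86e-11). Stat2, a signal transducer of the interferon receptors, rose by 0.55 (SE 0.035, adjusted p 3.92e-16) and 0.41 (SE 0.036, adjusted p 8.26e-12). With dTAG-13 the list was divided: 4 were called higher and 7 lower against control, and 4 higher and 8 lower among cells with doxycycline, where 62.1% and 64.1% of tested genes were called in either direction. After the length and GC correction these were 5 higher and 4 lower, and 4 higher and 4 lower. Of the tested genes with a length, 56.0% and 53.1% were then called in either direction. Rigi, the RNA sensor, was lower at -0.39 and -0.46, and Ifngr1, a chain of the interferon-gamma receptor, was higher at 0.25 and 0.24. After the correction Rigi was -0.37 and -0.39 and Ifngr1 0.14 and 0.14, all still called.

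The other 10 ISG15 enzymes, which are the ligase Arih1, 2 E2 enzymes and 7 ubiquitin proteases, had no shared direction with doxycycline: 2 were called higher and 2 lower against control, and 1 higher in the presence of dTAG-13, where 33.5% and 20.4% of tested genes were called in either direction. Usp13, a protease, was called at 0.67 (SE 0.23, adjusted p 0.0216) against control. This rests on few reads per library, 37 to 38 in control and 53 to 70 with doxycycline. In the presence of dTAG-13 the value of Usp13 was -0.37 and not called, an interaction of -1.04 (adjusted p 0.0169). With dTAG-13, 4 were called higher and 5 lower against control, and 2 higher and 4 lower among cells with doxycycline, where 62.1% and 64.1% of tested genes were called. Once corrected for length and GC content these were 2 higher and 5 lower, and 2 higher and 3 lower. The corrected shares of all tested genes with a length were 56.0% and 53.1%. Usp24, another protease, fell by 0.52 and 0.61 in those comparisons, and was -0.16 and -0.17 after the correction, still called.

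The other 13 members of the PARP family did not share one direction with doxycycline: 5 were called higher and 2 lower against control, and 3 higher and 4 lower in the presence of dTAG-13, where 33.5% and 20.4% of tested genes were called in either direction. Parp6 (0.33) and Parp11 (0.27) rose against control, and Parp1, the DNA damage sensor, fell by 0.13. Parp16, an enzyme of the endoplasmic reticulum, rose with dTAG-13 against control by 0.42 (SE 0.10, adjusted p 0.000369). With both agents against dTAG-13 alone it was at -0.70 (SE 0.11, adjusted p 2.72e-06). With dTAG-13, 5 were called higher and 6 lower against control, and 2 higher and 8 lower among cells with doxycycline, where 62.1% and 64.1% of tested genes were called. With length and GC corrected these were 5 higher and 5 lower, and 4 higher and 6 lower. The corrected shares of all tested genes with a length were 56.0% and 53.1%. Tnks, tankyrase, fell by 0.79 and 0.71 and Parp4 by 0.60 and 0.64. With the correction Tnks was -0.48 and -0.31, and Parp4 -0.36 and -0.31, all still called.

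**Figure D4:**
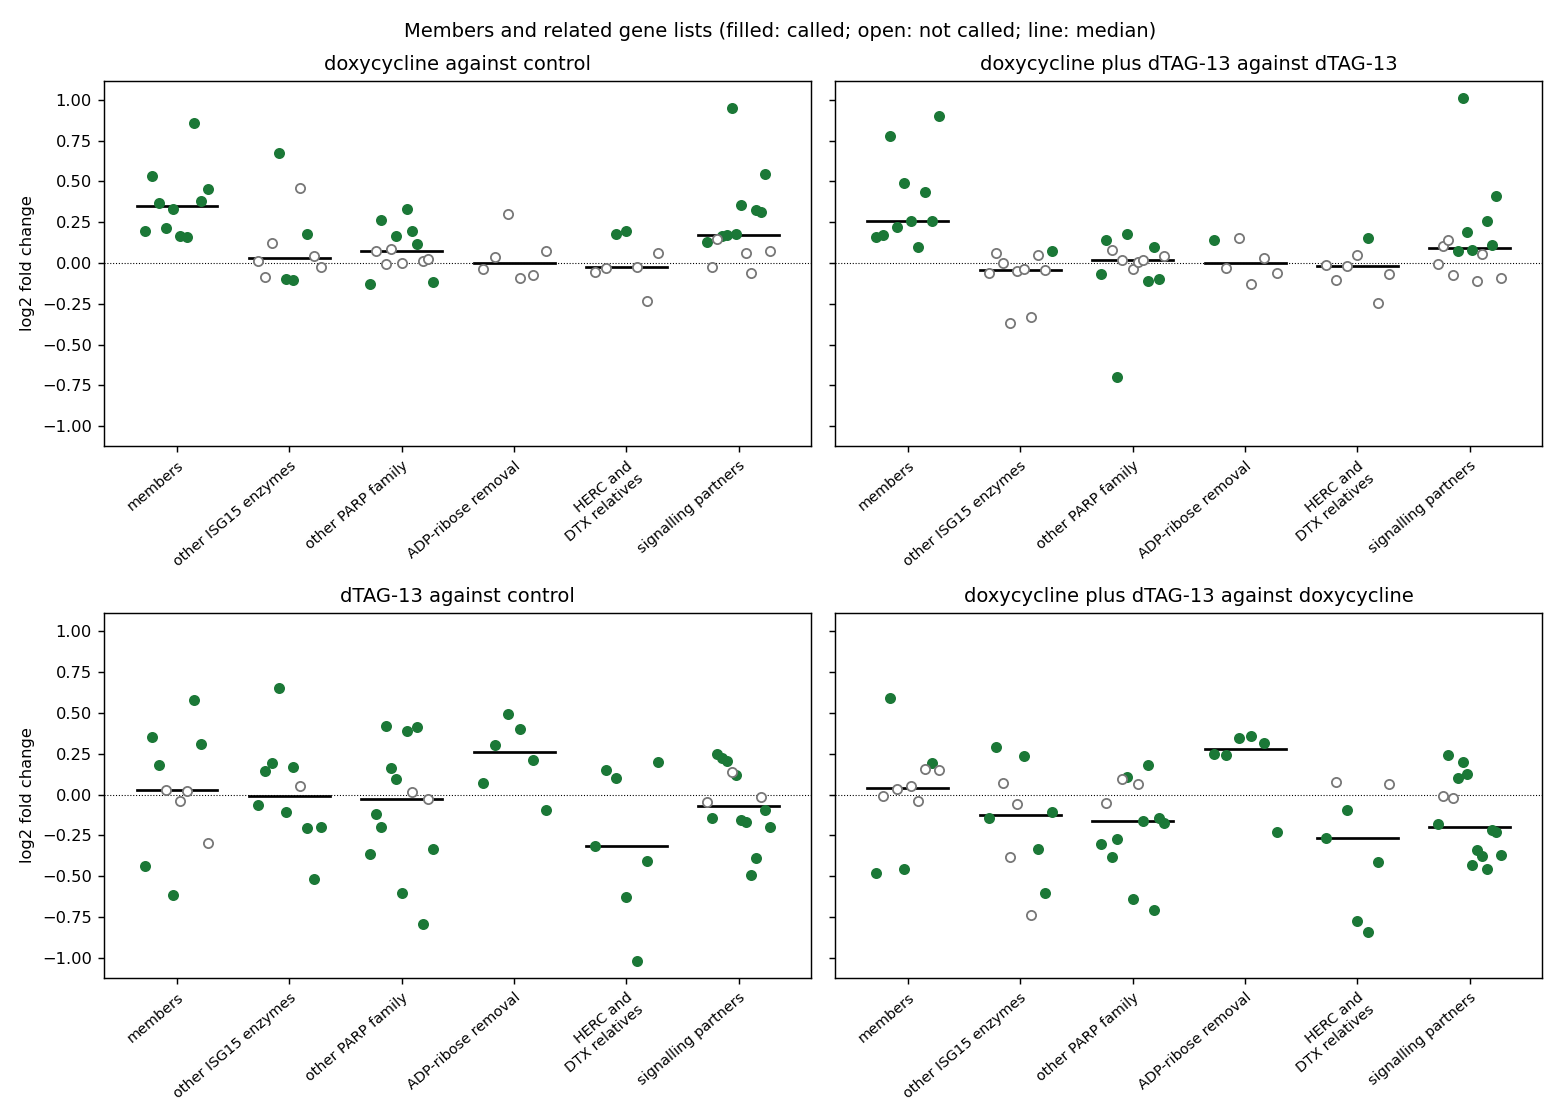
Log2 fold change (vertical axes) of the 10 genes and of the tested genes of 5 related lists (horizontal axes) in 4 comparisons; points are genes, filled where called, and lines are medians. In both doxycycline panels all points of the first column are filled and above 0, and the signalling partners have 9 and 7 called points, all above 0. The HERC and DTX relatives have 2 and 1 called points there, also all above 0.

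Across the 12 libraries, the genes whose log2 CPM followed Isg15 most closely, of the 11547 genes averaging 1 CPM or more, were Knstrn (Pearson r = 0.967), Nuf2 (0.962), Fbxo31 (0.958), Car6 (0.958) and Cst3 (0.957). Each had its highest group mean with both agents: Car6, a secreted carbonic anhydrase, was 67.1 ± 0.986 CPM in control, 82.2 ± 1.81 with doxycycline, 81.1 ± 2.78 with dTAG-13 and 105.8 ± 1.65 with both. The mean of the 10 genes was followed most closely by Adpgk (0.996), Gbp3 (0.994), Nek7 (0.992), Samd5 (0.991) and Pde4b (0.990). Gbp3, an interferon-induced GTPase, was 187.9 ± 2.11 CPM in control, 260.8 ± 2.81 with doxycycline, 187.8 ± 3.23 with dTAG-13 and 258.7 ± 3.23 with both. The libraries come in 4 groups of technical replicates, so these correlations rest on 4 cultures and are given as a description.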

How the data were processed

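Poly(A) RNA from 12 libraries was sequenced. The authors deposited 1 table of raw counts per Entrez gene ID, not normalized. Alignment was with Subread, per the file headers, and the submitters' processing notes name bcl2fastq 2.17, featureCounts and mm10. For annotation, strand setting and multi-mapping reads, nothing is given in the sources used here. All columns matched a library by title.

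Counts were tested in R 4.3.3 with edgeR 4.0.16: filterByExpr by group (12910 of 27179 genes), TMM scaling (factors 0.9647 to 1.0349), a robust two-sided quasi-likelihood F test with 1 mean per group over all 12 libraries, and Benjamini-Hochberg adjustment over all tested genes, called at an adjusted p under 0.05. CPM uses the TMM-scaled library size. Likeness used log2 CPM with a prior count of 2. Symbols, gene starts and ends, and promoters came from RefSeq GRCm38.p6. Transcript lengths and GC content, gene strands and exon overlaps came from GENCODE M21. Lengths were known for 90.98% of tested genes.

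Alternatives were RLE factors, library size only, DESeq2 1.42.0, no filter, 1 CPM in 3 libraries, only the groups compared, a replicate block, a length and GC correction (splines with 5 degrees of freedom) and leaving out each library. Code was tested on simulated data. The 10 genes and the lists were chosen with earlier results of these data known. Named genes are the 10, up to 2 called genes per direction, list and comparison with the largest change, the 5 most alike genes, and Adpgk. Cell type markers and overlapping genes are named besides. Python 3.11.15, pandas 2.3.3, numpy 2.4.6 and matplotlib 3.10.9 were used.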

Additional observations from a re-analysis of the deposited data

Results flagged for a closer look

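For 3 of the 10 genes, where 22.9% of all tested genes were called, the difference with dTAG-13 was not the same without and with doxycycline, by the interaction test of edgeR with Benjamini-Hochberg adjustment over all tested genes. Isg15 rose with dTAG-13 in both settings, and the interaction was 0.41 on the log2 scale (adjusted p 3.58e-06), with 0.18 without doxycycline and 0.59 with it. After the length and GC correction these were -0.08 and 0.20, and the interaction was 0.27. Herc6 rose with dTAG-13 without doxycycline (0.35) and was at -0.01 with it, an interaction of -0.36 (adjusted p 8.59e-06). Parp14 fell in both settings, by 0.61 and 0.45, an interaction of 0.16 (adjusted p 0.0148). With scaling by library size only, the interaction of Parp14 was 0.09 and not called (adjusted p 0.192). After the length and GC correction the interaction was -0.27 for Herc6 and 0.25 for Parp14, both called. These tests rest on 1 culture per group.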

How the results depend on the processing

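The precision is that of technical replicates of 1 culture per group, and a false call from a difference between cultures cannot be seen; depth limits mainly Usp18 and Uba7. Of the values of single genes under the alternatives, 948 kept direction and side of the threshold, 19 gained a call, 7 lost one and 16 changed sign. The length and GC correction raised the calls among the 10 genes from 4 to 7 for doxycycline plus dTAG-13 against doxycycline. The share of all tested genes called there went from 64.1% to 53.1%. Library size only raised the calls among the 10 from 3 to 5 for the interaction, where the share of all tested genes went from 22.9% to 25.1%. The cause was not tested.

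Changes of sign were as follows, on the log2 scale. For dTAG-13 against control, Parp9 was 0.054 with library size only, Isg15 -0.080 with the length and GC correction, and Trim25 -0.017 without dTAG-13 replicate 2. For doxycycline plus dTAG-13 against doxycycline, Herc6 was 9e-04 with RLE factors and with DESeq2, 0.012 with library size only, 3e-04 with the filter of 1 CPM and 0.0022 with only the groups compared; the correction put Ube2l6 at -0.0062 and Trim25 at 0.27. For the interaction, Parp12 was -0.065 with library size only and from -0.011 (without doxycycline replicate 2) to 0.016 (without doxycycline replicate 1) with single libraries left out, -0.0021 and -0.0036 without dTAG-13 replicates 1 and 2; the correction put Trim25 at 0.0063 and Dtx3l at 0.035. Of these values, the one past the threshold was Trim25 at 0.27, and Isg15 and Ube2l6 had been called before the correction.

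With single libraries left out, 9 to 10 of the 10 genes were called in each doxycycline comparison, 6 to 7 for dTAG-13 against control, 4 for doxycycline plus dTAG-13 against doxycycline and 3 to 4 for the interaction. Over all genes, 3485 to 4449 were called for doxycycline against control and 1990 to 2832 in the presence of dTAG-13. For dTAG-13 they were 7482 to 8075 against control and 7734 to 8341 among cells with doxycycline, and for the interaction 2374 to 3042. In the main fit these last 3 shares were 62.1%, 64.1% and 22.9% of tested genes. Same-numbered libraries did not deviate together (r from -0.021 to 0.080 over 18 pairs, and 3 of 12 libraries correlated best with their own number), so the numbers were not taken as pairs. With the replicate number as a block, 10, 6, 4, 10 and 3 of the genes were called, as without it, and over all genes 4172, 7938, 8205, 2490 and 2810.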

Other observations

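The RNA of enzymes that remove ADP-ribose was measured as a list of 6 genes. None was called with doxycycline against control by edgeR, where 33.5% of tested genes were called in either direction. Adprh alone was called in the presence of dTAG-13 (0.14), where 20.4% of tested genes were. With dTAG-13, 5 were called higher and 1 lower, both against control and among cells with doxycycline, beside 62.1% and 64.1% of tested genes called in either direction. Macrod1, a macrodomain hydrolase, was higher at 0.49 and 0.35 and Macrod2 at 0.40 and 0.36, while Parg, the glycohydrolase that cuts poly(ADP-ribose), was lower at -0.09 and -0.23. After the length and GC correction, 3 were called higher and 0 lower against control, and 2 higher and 1 lower among cells with doxycycline. Of the tested genes with a length, 56.0% and 53.1% were then called in either direction. Macrod2 was not called in either comparison (adjusted p 0.107 and 0.0839), and Macrod1 was not called among cells with doxycycline (0.24, adjusted p 0.083).

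The relatives of Herc6 and Dtx3l were a list of 8 genes, of which 7 were tested. With doxycycline, 2 were called higher and 0 lower against control, and 1 higher and 0 lower in the presence of dTAG-13. In those comparisons 14.8% and 10.7% of tested genes were called higher. With dTAG-13, 3 were called higher and 4 lower against control, and 0 higher and 5 lower among cells with doxycycline, where 62.1% and 64.1% of tested genes were called in either direction. After the length and GC correction these were 3 higher and 3 lower, and 1 higher and 2 lower. Of the tested genes with a length, 56.0% and 53.1% were then called in either direction. Herc2, a giant E3 ligase with a transcript of 15261 bases, fell by 1.02 and 0.84 on the log2 scale, and Herc1, with 15153 bases, by 0.63 and 0.77. With the correction Herc2 was -0.55 and -0.34 and Herc1 -0.22 and -0.32, all still called.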
